A study of Mus musculus with 11 samples.

Results

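Heat shock proteins and their J-domain partners were examined in mouse T cell acute lymphoblastic leukaemia with and without Utx, an X-linked histone demethylase listed as Kdm6a. The rows of the gene table were taken whose symbol opens with Hsp (followed by a, b, d, e, f, h or a digit) or with Dnaja, Dnajb or Dnajc and a number. This gave 83 of the 37224 rows, 37 of them Hsp rows and 46 Dnaj rows. Of these, 8 were pseudogene rows, and the other 75 stood for 74 gene symbols because Hspa14 had 2 rows.

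The tumours arose in mice that received intravenous transplants of cKit-positive blood progenitors on a C57/BL6 background, and RNA was taken from leukaemic cells of bone marrow or spleen. The UTXKO progenitors were Utx-/Y, and the UTXWT progenitors were Utx+/+ or Utx+/Y. All samples of both genotypes carried a retrovirus that expresses Notch1-IC, the active intracellular form of Notch1, which drives the leukaemia, so that no group without Notch1-IC was compared. The labels list 11 samples. The 5 UTXKO samples were 2 of bone marrow, 1 of them a repeat run, and 3 of spleen. The 6 UTXWT samples were 2 of bone marrow, 1 of them a repeat run, and 4 of spleen, 1 of them a repeat run. The UTXKO donors carried a Y chromosome and the UTXWT donors could be of either sex, so genotype and sex cannot be told apart in these pools.

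Chaperones bind unfolded stretches of other proteins and let them fold, assemble or be degraded. Hsp70 proteins do this in cycles of ATP hydrolysis that J-domain proteins (the Dnaj genes) start and Hsp110 proteins and other exchange factors end, and Hsp90 acts later on kinases, receptors and other clients. Some members are made in every growing cell, while others are switched on by heat shock factor 1 when proteins unfold, and leukaemic T cells are known to depend on several Hsp90 clients.

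The table held 1 pooled read count per gene and genotype, 106445530 counts in the UTXKO pool and 108015222 in the UTXWT pool. There are therefore no replicates: no difference below has a spread between tumours or a test, and it is not shown whether all tumours of a pool or a single tumour gave it. Levels are given as counts or as CPM, the counts per 1000000 counts of the pool. Ratios are log2 values of the UTXKO over the UTXWT pool with 0.5 counts added to each, so a positive ratio means higher in the UTXKO pool. The interval behind each ratio is the exact 95% Clopper-Pearson interval of the UTXKO share of the combined count, and it covers counting error only. Its median half-width was 0.54 for genes with 100 to 200 combined counts and 0.049 for those with 10000 to 20000. A gene was called higher or lower if it had a combined count of 100 or more, a ratio of at least 1 in size (2-fold) and an interval without 0.

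The labels held for the targeted gene: Kdm6a had 1115 counts in the UTXKO pool and 6299 in the UTXWT pool, a log2 ratio of -2.48 (interval -2.57 to -2.38). T cell markers summed to 2913 CPM in the UTXKO pool and 3692 CPM in the UTXWT pool, and 1 of 12, Thy1, was called lower. Markers of other cells were present in both pools. All 10 macrophage markers were called higher, at a sum of 336 CPM in the UTXKO pool and 112 CPM in the UTXWT pool. Erythroid markers summed to 25723 CPM in the UTXKO pool and 12888 CPM in the UTXWT pool (3 of 9 higher), and neutrophil markers to 2515 CPM in the UTXKO pool and 2072 CPM in the UTXWT pool (2 of 9 higher). NK cell markers summed to 231 CPM in the UTXKO pool and 246 CPM in the UTXWT pool. Gzma, which was not called, held 193 CPM of this sum in the UTXKO pool and 236 CPM in the UTXWT pool. Of the 5 NK markers with at least 100 counts, the other 4 were called higher. Megakaryocyte markers summed to 21.7 CPM in the UTXKO pool and 8.79 CPM in the UTXWT pool (3 of 5 higher). B cell markers summed to 6.75 CPM in the UTXKO pool and 7.85 CPM in the UTXWT pool. Of 4 rows with at least 100 counts, 1 was called lower, Pax5, at 0.592 CPM (UTXKO pool) and 2.45 CPM (UTXWT pool). No marker of these lists was at 0 in either pool. Over all rows with at least 100 counts, 11.2% were called higher and 5.36% lower. The design text mentions sorted cells without saying which samples were sorted. The part of these cells in the chaperone ratios was not tested, and in such bulk samples fewer cells of a type and less RNA per cell cannot be told apart.

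Most chaperone genes lay close to the same level in both pools. Of the 83 rows, 4 had no count in either pool, 16 had under 100 combined counts and 63 had at least 100. Among these 63, 2 were called higher, Hspb2 and Dnajb2, beside 11.2% of all rows of that depth, and 1 was called lower, Dnajc6, beside 5.36%. Their median log2 ratio was -0.07, the same as the median of -0.07 over all 13833 rows of that depth, and their range was -1.15 to 2.68. A ratio under 0.5 in size was found for 44 of the 63, or 69.8%, against 60.6% of all rows. A further 16 lay between 0.5 and 1 in size. Without the 2-fold minimum the interval lay above 0 for 24 members (38.1%) and below 0 for 33 (52.4%), beside 37% above and 46.7% below over all rows. With a combined count of at least 20 in place of 100, 5 members were called higher beside 13.6% of all rows, and 1 lower beside 8.7%. With a 1.5-fold minimum, 7 were called higher beside 18.9% and 7 lower beside 14.7%. Scaled by TMM, by median of ratios or to a total without mitochondrial and haemoglobin rows, 3 members were called higher (Hspb2, Dnajb2 and Dnajb3) beside 12.3%, 12.1% and 12.4% of all rows in turn, and Dnajc6 was called lower beside 4.71%, 4.82% and 4.64%. In the authors' deposited table, q-values under 0.05 with no fold minimum marked 24 members higher and 33 lower, beside 36.6% and 46.2% of all rows. The member rows together held 0.834% of the counts in the UTXKO pool (8335 CPM) and 0.902% in the UTXWT pool (9015 CPM).

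**Figure D1:**
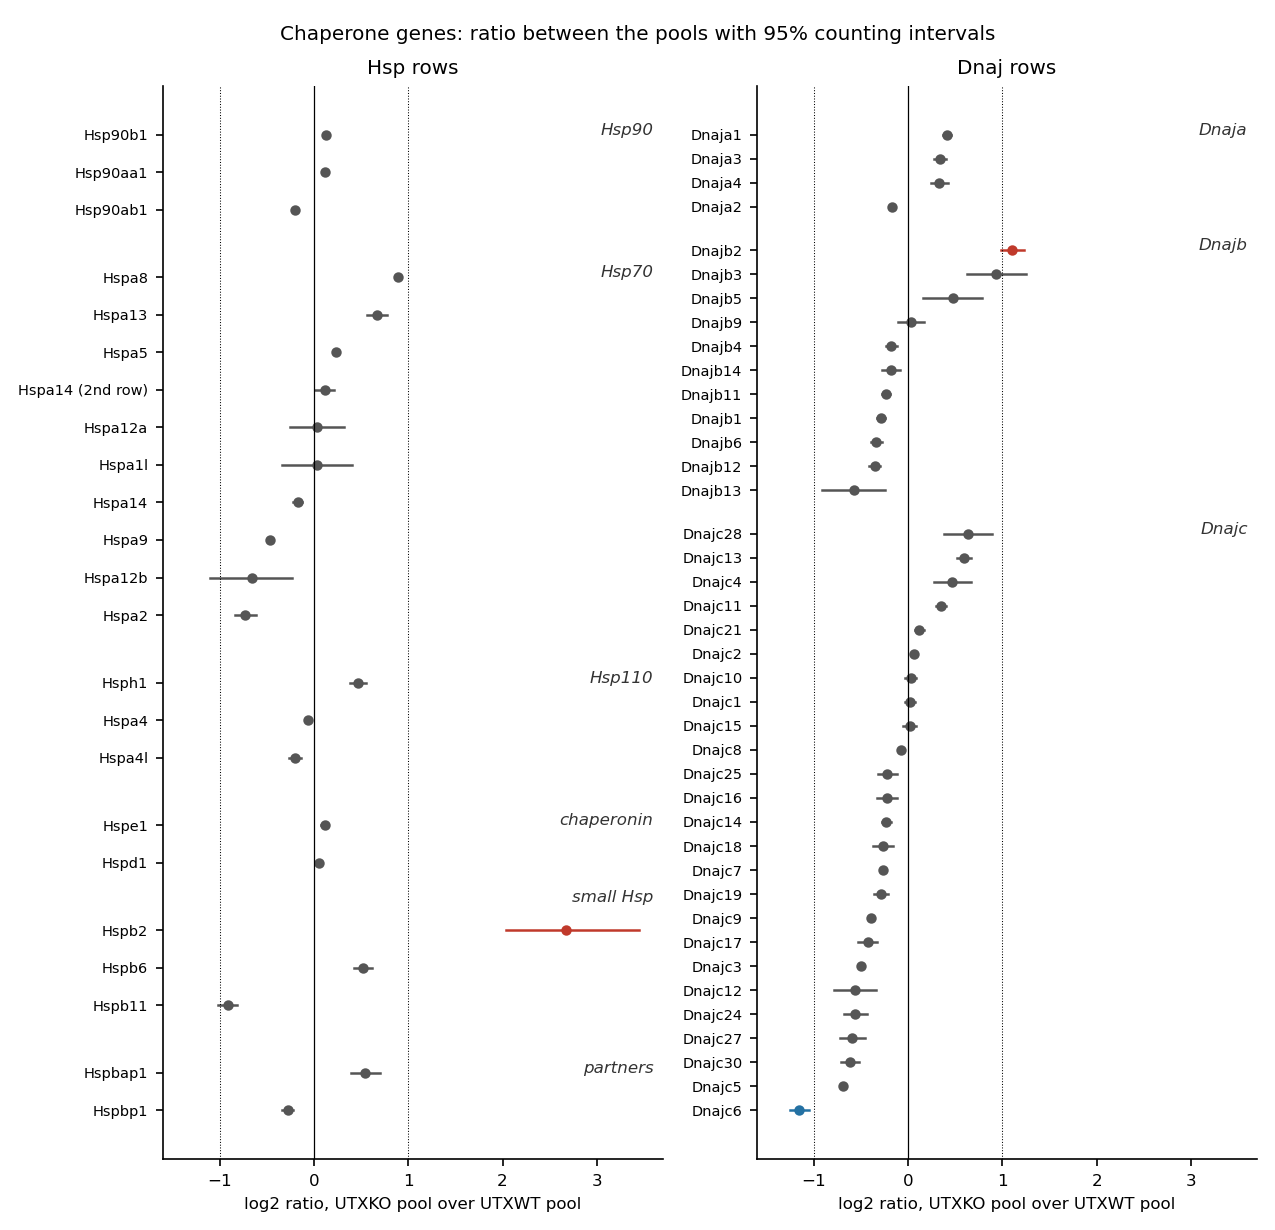
Log2 ratio of the UTXKO over the UTXWT pool (x axis) for the 63 chaperone rows with at least 100 combined counts, grouped by family; points are the ratios, bars the exact 95% counting intervals, dotted lines mark a 2-fold difference, red is called higher and blue called lower. Hspb2 at 2.68 and Dnajb2 at 1.11 lie past the upper line and Dnajc6 at -1.15 past the lower one, while most others lie within 0.5 of 0.

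The Hspa8 row was higher in the UTXKO pool, and the row of a copy of that gene was lower there by a similar number of counts. Hspa8 encodes Hsc70, the constitutive Hsp70 of the cytosol, which folds new proteins and strips clathrin from vesicles. It lies at chr9:40800984-40810087 on the plus strand (GRCm38, GENCODE M21). It had 35441 counts in the UTXKO pool (333 CPM) and 19314 in the UTXWT pool (179 CPM), a log2 ratio of 0.90 (interval 0.87 to 0.92) that stayed under the 2-fold minimum. Gm15459 is a processed pseudogene, an intronless copy of the Hspa8 mRNA, at chr5:5781615-5783555 on the minus strand. It had 13070 counts in the UTXKO pool (123 CPM) and 28449 in the UTXWT pool (263 CPM), a log2 ratio of -1.10 (interval -1.13 to -1.07), and it was called lower. The gene was thus the higher of the pair in the UTXKO pool and the copy the higher of the pair in the UTXWT pool. Hspa8 held 73.1% of the counts of the pair in the UTXKO pool and 40.4% in the UTXWT pool.

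The copy matches the coding sequence of Hspa8 over 1941 bases with 5 differences, an identity of 99.7%, with no stop codon inside the frame. Of the 1892 stretches of 50 bases in that sequence, which is the length of the study's reads, 1642 (86.8%) are the same in both, and the longest run without a difference is 672 bases. The start of both coding sequences (coding bases 1 to 120, GENCODE M21 transcripts) is shown to let the match be seen, with the single differing base in capitals.
Hspa8: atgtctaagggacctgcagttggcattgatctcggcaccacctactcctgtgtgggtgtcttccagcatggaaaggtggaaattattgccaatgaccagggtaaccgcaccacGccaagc
Gm15459: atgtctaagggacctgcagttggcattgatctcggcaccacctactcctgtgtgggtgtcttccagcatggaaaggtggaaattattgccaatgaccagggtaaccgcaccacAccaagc
A read of 50 bases that does not cross 1 of the 5 differences fits both places equally, and the sources used here do not say how such reads were counted. Summed with its copies in the table (Gm15459, and Gm8355 with 40 counts in the UTXKO pool and 88 in the UTXWT pool), Hspa8 had 48551 counts in the UTXKO pool (456 CPM) and 47851 in the UTXWT pool (443 CPM). The log2 ratio of the sum was 0.04 (interval 0.02 to 0.06), against 0.90 for the Hspa8 row alone. The reason for the opposite shifts was not tested, and the direction given by the Hspa8 row alone is uncertain.

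**Figure D2:**
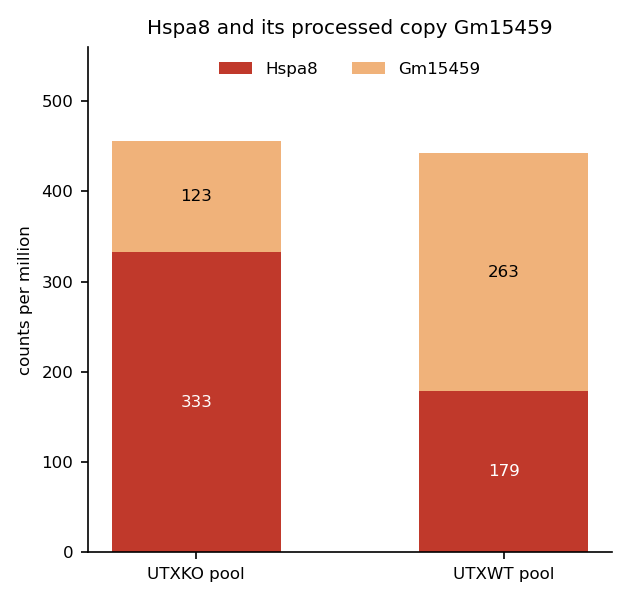
Level in CPM (y axis) of Hspa8 and, stacked on it, of its processed copy Gm15459 in the UTXKO pool (left) and the UTXWT pool (right), 1 pooled value each. The Hspa8 part is 333 CPM in the UTXKO pool and 179 CPM in the UTXWT pool, and the Gm15459 part 123 CPM in the UTXKO pool and 263 CPM in the UTXWT pool, so that the stacks reach nearly the same height.

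Other members also share sequence with copies or overlap a neighbour. Of the 62 members with at least 100 counts and a GENCODE M21 transcript, 12 shared at least 10% of their 50-base stretches with another gene, 28 shared under 1%, and the median was 2.13%. Hsp90aa1 shared 47.5% and Hspd1 42.1%, mostly with processed pseudogenes, Dnaja4 shared 42.7%, all of it with the overlapping gene Wdr61 on the other strand, and Hspa1l shared 71.4% with an antisense gene. Among the members with at least 100 counts, adding the counts of processed copies moved no ratio other than that of Hspa8 by more than 1.5-fold. Hsp90aa1, for example, was at 0.12 alone and at 0.13 with its copies.

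The inducible members, those known to be switched on by heat shock factor 1, stood near 0. Of 12 such rows 8 had at least 100 counts, and none was called in either direction, beside 11.2% of all rows higher and 5.36% lower. All 8 ratios were under 0.5 in size, with a median of 0.08 and a range of -0.28 to 0.47. The classical stress Hsp70 genes were barely detected. Hspa1a had 24 counts in the UTXKO pool and 11 in the UTXWT pool, and Hspa1b had 17 counts in the UTXKO pool and 23 in the UTXWT pool. These genes are near-identical neighbours on chromosome 17, share 58.8% of the Hspa1a stretches of 50 bases, and their reads cannot be divided with certainty. Hspb1, the small heat shock protein known as Hsp25 in mice, had 2 counts in each pool, and Hspb8, which works with Bag3 in autophagy, had 21 in the UTXKO pool and 8 in the UTXWT pool. With a combined count of at least 20 in place of 100, Hspa1a (1.11) and Hspb8 (1.36) were called higher, beside 13.6% of all rows.

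Among the abundant inducible genes, Hsph1, the inducible Hsp110, had 2826 counts in the UTXKO pool and 2073 in the UTXWT pool, a log2 ratio of 0.47 (interval 0.39 to 0.55). Dnaja1, a cytosolic J protein that serves Hsc70 and Hsp70, had 9556 counts in the UTXKO pool and 7295 in the UTXWT pool, a ratio of 0.41 (0.37 to 0.45). These were the highest of the class, and both were under 1.5-fold. Dnajb1, the J protein usually induced along with Hsp70, went the other way at 8706 counts in the UTXKO pool and 10755 in the UTXWT pool, a ratio of -0.28 (-0.32 to -0.24). Its relative Dnajb4 had 4216 counts in the UTXKO pool and 4830 in the UTXWT pool (-0.18). Hspa4l, a heat-inducible Hsp110, had 3745 counts in the UTXKO pool and 4374 in the UTXWT pool (-0.20). The class therefore held small ratios of both signs, 5 above 0 and 3 below.

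The RefSeq promoter windows of the members (250 bases before to 50 after the annotated start, GRCm38.p6) were searched for the letters bound by heat shock factors. The motif GAANNTTC, where N is any base and both strands read alike, was found in at least 1 window of 8 of the 11 inducible genes with a window (72.7%), in 3 of 19 constitutive cytosolic genes, in 2 of 7 mitochondrial genes and in none of 9 genes of the endoplasmic reticulum. It was found in 14 of the 60 members with a window (23.3%) and in 9.04% of all 27025 genes of that source. The same motif followed, after any 2 bases, by GAA was sought on both strands and holds the shorter one. This longer motif was found in 3 of the 11 inducible genes, in 4 of the 60 members and in 0.662% of all genes. For both motifs Hspd1 and Hspe1 count in the inducible and in the mitochondrial class, and their matches are the same bases. Hspa1a and Hspa1b, which both hold the shorter motif, have nearly identical windows, so these genes are not independent cases. TATAAA on either strand was found in none of the inducible genes, in 4 of the 60 members (6.67%) and in 15.7% of all genes. Members with no entry in that source were Hsp90aa1, Hsp90ab1, Hspa8, Hspa9, Hspa13, Hspb2, Dnajc2, Dnajc5, Dnajc5b, Dnajc11, Dnajc12, Dnajc18, Dnajc22 and Dnajc30. The stretches around the motif are shown for inducible genes that were barely detected (Hspa1a, Hspa1b and Hspb1) and for Dnaja1, which had 9556 counts in the UTXKO pool and 7295 in the UTXWT pool; each has 60 bases and lies before the start, and capitals mark GAANNTTC. The Hspa1a stretch is chr17:34972227-34972286 and the Hspa1b stretch chr17:34959309-34959368, both on the minus strand. The Hspb1 stretch is chr5:135887786-135887845 and the Dnaja1 stretch chr4:40722318-40722377, both on the plus strand.
Hspa1a: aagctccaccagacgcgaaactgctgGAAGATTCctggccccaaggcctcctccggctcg
Hspa1b: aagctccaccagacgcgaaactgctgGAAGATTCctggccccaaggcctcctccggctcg
Hspb1: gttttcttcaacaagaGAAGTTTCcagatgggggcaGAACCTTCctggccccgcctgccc
Dnaja1: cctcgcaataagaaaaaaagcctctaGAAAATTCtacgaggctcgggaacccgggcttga
The Hspa1a and Hspa1b stretches are the same, and over the whole windows 296 of 300 bases match. A match of letters is a description of the sequence and shows no binding. The inducible genes were listed as known targets of heat shock factor 1, so a high share of its motif among them is no independent finding. In Hspb8 and Hsph1 the matches of GAANNTTC lie after the annotated start.

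The chaperonin pair Hspd1 (Hsp60) and Hspe1 (Hsp10), which together form the folding chamber of mitochondria, is transcribed outwards from a shared promoter and had nearly the same ratio. Hspd1 had 17106 counts in the UTXKO pool and 16707 in the UTXWT pool, a log2 ratio of 0.06 (interval 0.02 to 0.09). Hspe1 had 12853 counts in the UTXKO pool and 12058 in the UTXWT pool, a ratio of 0.11 (0.08 to 0.15). Neither ratio was over 1.5-fold. The 215 bases between the annotated starts, chr1:55087933-55088147 in GRCm38.p6, are shown on the plus strand, from the Hspd1 end to the Hspe1 end, because the pair shares them; capitals mark overlapping matches of GAANNTTC and of its longer form on both strands.
Hspd1-Hspe1: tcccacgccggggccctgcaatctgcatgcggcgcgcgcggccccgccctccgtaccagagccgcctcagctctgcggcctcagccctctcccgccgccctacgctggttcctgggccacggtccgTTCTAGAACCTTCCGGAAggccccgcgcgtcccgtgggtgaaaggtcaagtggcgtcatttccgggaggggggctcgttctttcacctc

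**Figure D3:**
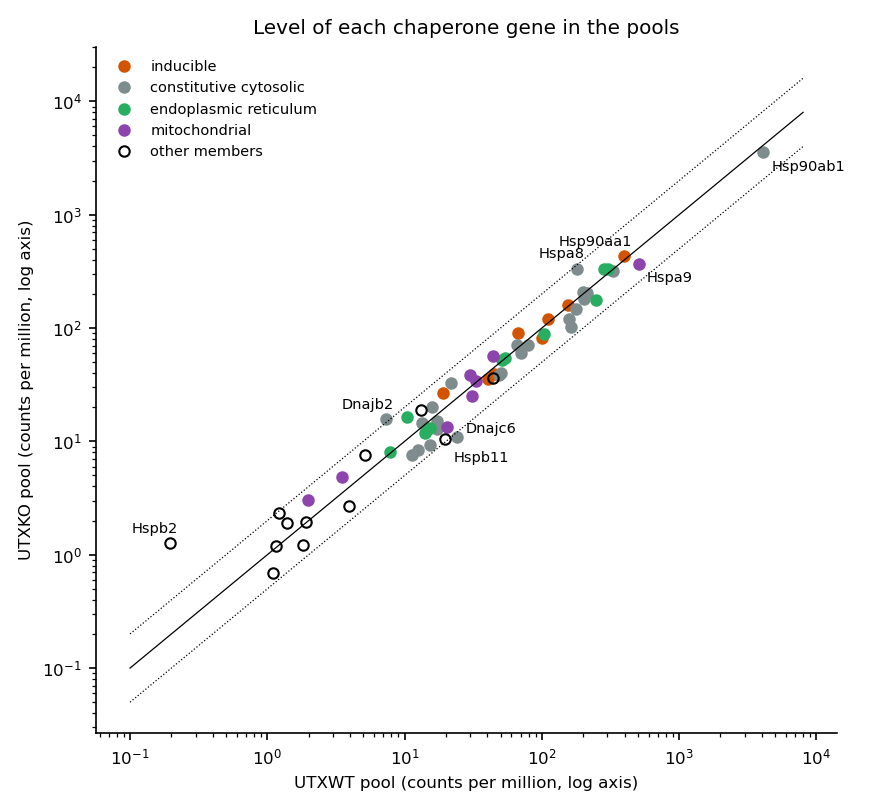
Level of the 63 chaperone rows with at least 100 combined counts, in CPM on log axes, in the UTXKO pool (y axis) and the UTXWT pool (x axis); colours give the class, the full line marks equal levels and dotted lines a 2-fold difference. The rows follow the line of equal levels from about 1 CPM up to Hsp90ab1 at 3583 CPM in the UTXKO pool and 4114 CPM in the UTXWT pool, and Hspb2, at 1.27 CPM in the UTXKO pool and 0.194 CPM in the UTXWT pool, lies farthest from it.

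Per length, the Hsp90 gene Hsp90ab1, the constitutive cytosolic form, exceeded every other member. Levels per length were computed in TPM, counts per length of exon scaled to a fixed sum over all genes, with the exon lengths of GENCODE M21. Hsp90ab1 stood at 1860 TPM in the UTXKO pool (49.4% of the summed TPM of all members) and at 2239 TPM in the UTXWT pool (52.0%). Its log2 ratio of counts was -0.20 (interval -0.21 to -0.19), from 381343 counts in the UTXKO pool and 444331 in the UTXWT pool. Hsp90aa1, the inducible cytosolic Hsp90, had 45805 counts in the UTXKO pool and 42668 in the UTXWT pool, a ratio of 0.12 (0.10 to 0.14). Hsp90b1 (Grp94), the Hsp90 of the endoplasmic reticulum, had 35242 counts in the UTXKO pool and 32790 in the UTXWT pool, a ratio of 0.13 (0.10 to 0.15). Hsp90ab1 made up 86.2% of the Hsp90 TPM in the UTXKO pool and 88.6% in the UTXWT pool.

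In the Hsp70 family none of the 10 rows with at least 100 counts was called, beside 11.2% of all rows higher and 5.36% lower. The median log2 ratio of these 10 rows was 0.03. Hspa9 (mortalin), which pulls proteins into mitochondria, had 39341 counts in the UTXKO pool and 54896 in the UTXWT pool, a log2 ratio of -0.46 (interval -0.48 to -0.44). Hspa5 (BiP), the Hsp70 of the endoplasmic reticulum and a target of the unfolded protein response, had 35521 counts in the UTXKO pool and 30590 in the UTXWT pool, a ratio of 0.24 (0.21 to 0.26). Hspa8, Hspa9 and Hspa5 together made up most of the family's TPM in both pools.

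Less abundant Hsp70 genes had ratios on both sides of 0. Hspa2, best known for its part in spermatogenesis, had 991 counts in the UTXKO pool and 1662 in the UTXWT pool, a log2 ratio of -0.72 (interval -0.84 to -0.61). Hspa13, a short Hsp70 of microsomes, had 1755 counts in the UTXKO pool and 1120 in the UTXWT pool, a ratio of 0.67 (0.56 to 0.78). Hspa12b, a distant relative known from endothelium, had 74 counts in the UTXKO pool and 119 in the UTXWT pool, with a wide interval (-0.66, -1.10 to -0.23). Hspa12a and Hspa1l were at 0.03 each, with intervals on both sides of 0. Hspa14, which works with Dnajc2 on the ribosome, was at -0.17 in its main row and at 0.11 in its second row. In the Hsp110 group, Hspa4 made up 89.6% of the group's TPM in the UTXKO pool and 90.8% in the UTXWT pool, and it had 33723 counts in the UTXKO pool and 35593 in the UTXWT pool, a ratio of -0.06 (-0.08 to -0.04) that changed sign under other scalings.

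The J proteins held a called member at each end, beside 11.2% of all rows called higher and 5.36% called lower. Of the 4 Dnaja genes none was called, 3 ratios lay between 0.33 and 0.41, and that of Dnaja2 was -0.17, from 19103 counts in the UTXKO pool and 21860 in the UTXWT pool. Dnaja3, the mitochondrial form, was at 0.34 and Dnaja4 at 0.33. Of the 11 Dnajb genes with at least 100 counts, Dnajb2 was called higher and the median was -0.18. Dnajb2 (HSJ1), known in human neurons for handing ubiquitin-marked proteins to the proteasome, had 1673 counts in the UTXKO pool and 788 in the UTXWT pool, a ratio of 1.11 (interval 0.98 to 1.23). It lies at chr1:75236406-75245692 on the plus strand. Dnajb3, known from the male germ line, came just short of the 2-fold minimum at 247 counts in the UTXKO pool and 131 in the UTXWT pool (0.93, 0.62 to 1.25), and it passed under 3 of the 4 other scalings.

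The remaining Dnajb genes lay between -0.57 and 0.47. Dnajb5 had 204 counts in the UTXKO pool and 149 in the UTXWT pool, a ratio of 0.47 (0.16 to 0.79). Dnajb6, which keeps aggregating proteins soluble, had 4261 counts in the UTXKO pool and 5449 in the UTXWT pool (-0.33, -0.39 to -0.28). Dnajb12, anchored in the membrane of the endoplasmic reticulum with its J domain in the cytosol, had 4080 counts in the UTXKO pool and 5286 in the UTXWT pool (-0.35), and its relative Dnajb14 was at -0.18. Dnajb13, a protein of the sperm tail, had 129 counts in the UTXKO pool and 195 in the UTXWT pool (-0.57, -0.91 to -0.25).

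Of the 25 Dnajc genes with at least 100 counts, none was called higher, beside 11.2% of all rows, and 1 lower, beside 5.36%. The median log2 ratio of the 25 was -0.23. Dnajc6 (auxilin), which brings Hsc70 to clathrin-coated vesicles and is best known from neurons, had 1159 counts in the UTXKO pool and 2614 in the UTXWT pool. Its ratio was -1.15 (interval -1.25 to -1.05), and it lies at chr4:101496648-101642799 on the plus strand. Dnajc5 (cysteine string protein), which guides Hsc70 on secretory vesicles, had 10784 counts in the UTXKO pool and 17660 in the UTXWT pool, a ratio of -0.69 (-0.73 to -0.66) under the 2-fold minimum. Both of these vesicle partners of Hsc70 thus had fewer counts in the UTXKO pool. Dnajc13, a partner of Hsc70 on endosomes, lay on the other side at 3505 counts in the UTXKO pool and 2357 in the UTXWT pool (0.59, 0.52 to 0.67). Dnajc27, a small GTPase with a J domain, had 806 counts in the UTXKO pool and 1230 in the UTXWT pool (-0.59, -0.72 to -0.46).

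The most abundant Dnajc genes per length were Dnajc8 and Dnajc9 of the nucleus, followed by Dnajc3 of the endoplasmic reticulum and Dnajc2 of the ribosome, by the mean of both pools. Dnajc8, a splicing factor, stood at 124 TPM in the UTXKO pool and 137 TPM in the UTXWT pool, and its ratio of counts was -0.07, a sign that turned under 2 of the other scalings. Dnajc9, a chaperone of histones, had 12866 counts in the UTXKO pool and 17122 in the UTXWT pool, a ratio of -0.39 (-0.42 to -0.36). Dnajc2, of the ribosome-bound complex, had 22185 counts in the UTXKO pool and 21592 in the UTXWT pool (0.06). Over the 24 rows of the constitutive cytosolic class, 1 was called higher and 1 lower, beside 11.2% and 5.36% of all rows. In this class 17 ratios lay below 0 and 7 above. The median was -0.19, beside 7642 of 13833 below 0 and a median of -0.07 over all rows. The class name is loose, because the class took in Dnajc8 and Dnajc9 of the nucleus. It also took in Dnajb12, of the endoplasmic reticulum membrane, and its relative Dnajb14. The median of the 8 inducible members was 0.08, and no test of the difference between the classes could be made.

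In the endoplasmic reticulum none of the 11 members was called, beside 11.2% of all rows higher and 5.36% lower. Their median log2 ratio was 0.02, with a range of -0.50 to 0.67. Dnajc3 (p58IPK), a partner of BiP that is induced in the unfolded protein response, was the lowest at 18685 counts in the UTXKO pool and 26732 in the UTXWT pool (-0.50, -0.52 to -0.47). Dnajb9 (ERdj4), another target of that response, had 850 counts in the UTXKO pool and 842 in the UTXWT pool (0.03), and Dnajb11 (ERdj3) had 9360 counts in the UTXKO pool and 11169 in the UTXWT pool (-0.23). BiP and its J proteins therefore did not share a direction.

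Among the 10 mitochondrial members none was called, beside 11.2% of all rows higher and 5.36% lower. Their median log2 ratio was 0.08, with a range of -0.61 to 0.64. Hspd1 and Hspe1 are also inducible members and are the middle values of both classes, so the medians of both classes are the same 0.08. Dnajc30 had 1418 counts in the UTXKO pool and 2201 in the UTXWT pool (-0.61, -0.71 to -0.52), and 24.0% of its 50-base stretches are shared with the gene Bud23 on the other strand. Dnajc28 had 325 counts in the UTXKO pool and 212 in the UTXWT pool (0.64, 0.38 to 0.89). Dnajc11, found at the contact sites of the inner and outer membrane, had 5982 counts in the UTXKO pool and 4763 in the UTXWT pool (0.35, 0.29 to 0.41), and Dnajc4 had 513 counts in the UTXKO pool and 376 in the UTXWT pool (0.47). Summed over the class, the counts had a ratio of -0.19, opposite in sign to the median, and Hspa9 alone held 39341 of the 87913 counts of the class in the UTXKO pool and 54896 of the 101415 counts in the UTXWT pool.

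The small heat shock proteins had the widest spread and the lowest depth. Of 8 rows 3 had at least 100 counts. Hspb2, a small heat shock protein of heart and skeletal muscle, had 135 counts in the UTXKO pool (1.27 CPM) and 21 in the UTXWT pool (0.194 CPM), a log2 ratio of 2.68 (interval 2.04 to 3.44). It lies at chr9:50751078-50752354 on the minus strand and overlaps the exons of Cryab, another small heat shock protein gene on the opposite strand, over 252 bases or 30.2% of its length. Cryab had 507 counts in the UTXKO pool and 47 in the UTXWT pool, a ratio of 3.44 (3.02 to 3.92). The sources used here do not say whether strand entered the counting, so within that overlap Hspb2 and Cryab reads cannot be told apart. Of the 50-base stretches of Hspb2, 24.4% are shared with Cryab. How many Hspb2 counts came from the overlap is not known from counts per gene. Stroma and endothelium markers summed to 116 CPM in the UTXKO pool and 95.2 CPM in the UTXWT pool. Of these 7 markers 6 had at least 100 counts, and 2 were called higher, beside 11.2% of all rows. The part of such cells in the Hspb2 and Cryab counts was not tested.

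Hspb6 (Hsp20), another small heat shock protein of muscle, had 1998 counts in the UTXKO pool and 1414 in the UTXWT pool, a ratio of 0.52 (0.42 to 0.62). Hspb11, despite its name, is the intraflagellar transport protein Ift25, and it came just short of being called lower at 1119 counts in the UTXKO pool and 2140 in the UTXWT pool (-0.91, -1.02 to -0.81). Hspb7 and Hspb9 had at most 27 counts in a pool, and Hspb3 had none. Of the binding partners that the symbol rule took in, Hspbap1, named for its binding to Hspb1, had 799 counts in the UTXKO pool and 555 in the UTXWT pool (0.55), and Hspbp1, an exchange factor of Hsp70, had 3848 counts in the UTXKO pool and 4736 in the UTXWT pool (-0.28).

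The other members under 100 combined counts were read only as counts. Dnajc5b, a relative of cysteine string protein known from testis, had 65 counts in the UTXKO pool and 15 in the UTXWT pool. In the UTXKO pool Dnajb7 had 11 counts, Dnajb8 0 and Dnajc22 2, and in the UTXWT pool Dnajb7 had 20, Dnajb8 3 and Dnajc22 6. Dnajc5g had no count in either pool. The 8 pseudogene rows held 77 counts in all in each pool, led by Hspa9-ps1 with 45 counts in the UTXKO pool and 31 in the UTXWT pool. A count of 0 allows up to 3 counts, or 0.0282 CPM in the UTXKO pool and 0.0278 CPM in the UTXWT pool.

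Regulators and partners of the chaperones gave a mixed picture. Hsf1, the factor that switches on the inducible genes, had 2066 counts in the UTXKO pool and 1751 in the UTXWT pool (0.26, 0.17 to 0.35), and Hsf2 had 1007 counts in the UTXKO pool and 1147 in the UTXWT pool (-0.17); neither was called. Of 27 cochaperones of Hsp90 and Hsp70, none was called higher, beside 11.2% of all rows, and 2 were called lower (7.41%), beside 5.36%, with a median of -0.16. Fkbp5, an Hsp90-bound immunophilin induced by glucocorticoids, had 31972 counts in the UTXKO pool and 81088 in the UTXWT pool (-1.32, -1.34 to -1.30). Bag3, the exchange factor that pairs Hsp70 with Hspb8, had 1211 counts in the UTXKO pool and 2727 in the UTXWT pool (-1.15, -1.25 to -1.05). Grpel2, an exchange factor of mitochondrial Hsp70, was at 0.63, under the 2-fold minimum. Of 13 genes of the TRiC chaperonin and prefoldin none was called, beside 11.2% of all rows higher and 5.36% lower. They lay between Pfdn2 at -0.59 and Cct7 at 0.12, with a median of -0.15. Pfdn1 was at -0.46 and Cct5 at 0.12.

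In the list of 20 folding and unfolded protein response genes, 2 were called higher (10%, beside 11.2% of all rows) and 1 lower (5%, beside 5.36%), with a median log2 ratio of 0.21. Xbp1, a transcription factor of that response, had 4073 counts in the UTXKO pool and 1343 in the UTXWT pool (1.62, 1.53 to 1.71), and Ern1, the kinase that splices its mRNA, had 1330 counts in the UTXKO pool and 565 in the UTXWT pool (1.26, 1.11 to 1.40). Herpud1, a degradation factor of the same organelle, lay on the other side at 3151 counts in the UTXKO pool and 7377 in the UTXWT pool (-1.21, -1.27 to -1.15), and Sel1l was next lowest at -0.29. The chaperones of the organelle itself, Hspa5 at 0.24 and Hsp90b1 at 0.13, lay between these. Of 22 immediate-early genes, which many cell stresses also induce, 7 were called higher (31.8%, beside 11.2% of all rows). Of the same list 1 was called lower (4.55%, beside 5.36%), and the median was 0.75. The 8 heat-inducible chaperones with at least 100 counts had a median of 0.08. The reason for this difference, and the part of macrophages and other cells in it, was not tested.

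**Figure D4:**
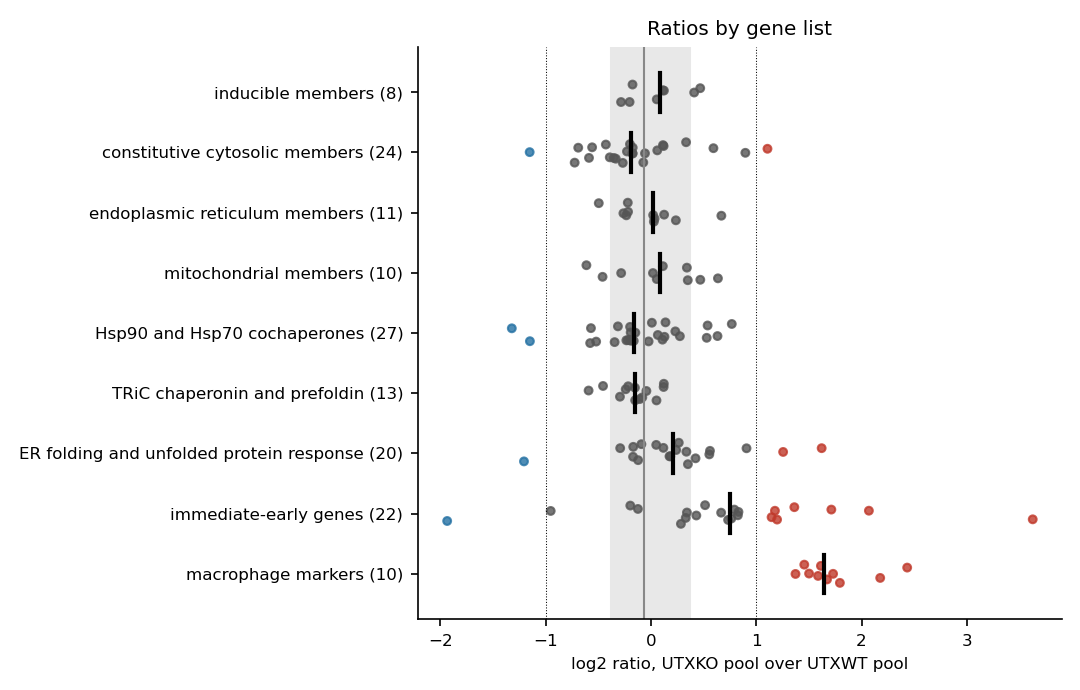
Log2 ratios of the UTXKO over the UTXWT pool (x axis) by gene list, for genes with at least 100 combined counts (number in brackets); points are genes (red called higher, blue called lower), black bars list medians, the grey band runs from the lower to the upper quartile of all 13833 rows (-0.38 to 0.37) and dotted lines mark a 2-fold difference. The chaperone classes and the TRiC list sit around 0, with medians between -0.19 and 0.08, and the immediate-early genes and macrophage markers, at 0.75 and 1.64, lie to the right. Hspd1 and Hspe1 stand in both the inducible and the mitochondrial list and set the median of both.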

How the data were processed

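Poly(A)-selected RNA was made into strand-marked libraries by the dUTP method and sequenced as 50-base single reads, per the labels' protocols. Base calling used CASAVA, alignment TopHat and build mm9, per the submitters' processing notes, with no versions; the sources used here name neither annotation nor counting tool. The authors deposited 1 DEGseq table with whole read counts pooled by genotype, per the file headers; the sources used here do not say which samples and runs each pool took in. Its value columns were read as UTXKO, then UTXWT, after the order in the table's title. The log2 fold changes, p-values and q-values in the deposited table are the authors' own; q-values under 0.05 served as an alternative call. A score per gene (a z value), deposited by the authors, was not used. It has 0 columns of single samples, so no test across samples was run.

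CPM used the total of the gene rows; ratios used a pseudocount of 0.5. Identifiers were matched to GENCODE M21 (GRCm38), which held 82 of the 83 members; coordinates are from it, not from mm9. Shared stretches were counted over all its transcripts, a gene counting as a partner from 1% of stretches. Promoters are from RefSeq (GRCm38.p6). The members and lists were chosen with earlier results of these data known. Named were called members, those of the Hsp and inducible lists, the 4 highest, 4 lowest and 4 most abundant of each Dnaj class, members next to the 2-fold minimum, and the called, 2 highest and 2 lowest genes of other lists; a few more were named after their values were seen. Calls were checked on simulated Poisson counts of 13846 genes for UTXKO over UTXWT. Of the genes given a log2 change of 1.5, 100% were recovered, as were 100% of those given 2. In addition, 1 unchanged gene was called, and 95.6% of intervals held the true ratio. These changes went only into genes well above 100 combined counts and exceeded the 2-fold minimum, so their recovery was nearly certain beforehand. The simulated counts held no spread between tumours and give no recovery rate for genes near 100 counts. Reads without molecular identifiers are not independent molecules, so intervals can be too narrow. Alternatives were other scalings, a pseudocount of 5, a combined count of at least 20, a 1.5-fold minimum, the authors' q-values, means and summed counts, and, added after seeing the data, sums with processed copies. Python 3.11.15 (numpy 2.4.6, scipy 1.17.1, pandas 2.3.3, matplotlib 3.10.9) and R 4.3.3 with edgeR 4.0.16 (scaling factors only) were used.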

Additional observations from a re-analysis of the deposited data

How the results depend on the processing

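No paired analysis was possible because the table holds 1 pooled value per genotype, and for the same reason no sample could be left out. Members called higher were 2 as reported, beside 11.2% of all rows. With a combined count of at least 20 they were 5 (Dnajc5b, Hspa1a and Hspb8 were added), beside 13.6%. With a 1.5-fold minimum 7 were called higher, beside 18.9% of all rows, and 7 lower in place of 1, beside 14.7%. Dnajb3 joined the higher calls, making 3, under TMM, median of ratios and a total without mitochondrial and haemoglobin rows. The shares of all rows called higher under these scalings were 12.3%, 12.1% and 12.4% in turn. These scalings move every ratio up by 0.08, 0.07 and 0.09 in turn, and the median of all rows to 0.01, -0.00 and 0.02. Under the same 3 scalings the member median was 0.0077, -0.0050 and 0.014, that of the inducible members 0.16, 0.15 and 0.17, of the constitutive cytosolic members -0.11, -0.12 and -0.10, of the endoplasmic reticulum members 0.10, 0.088 and 0.11, and of the mitochondrial members 0.16, 0.15 and 0.17. The medians of the inducible and of the mitochondrial members are the same because Hspd1 and Hspe1 are the middle values of both classes. The log2 ratio of summed counts of the mitochondrial members was -0.19. Hspa4 turned sign under these 3 scalings and Dnajc8 under TMM and the reduced total, both from sizes of at most 0.07. Among the 63 members with at least 100 combined counts, summing with processed copies moved the ratio of Hspa8 alone by more than 1.5-fold, to 0.04. The called members were otherwise the same under upper quartile scaling, the pseudocount of 5, both kinds of the authors' q-values and the sums with copies. The q-value calls kept the 2-fold and 100-count minimums and only replaced the interval, so their sameness is not independent support. Without the fold minimum, the authors' q-values under 0.05 marked 24 members higher and 33 lower, beside 36.6% and 46.2% of all rows. Depth limits members under 100 counts most, and nothing here measures the spread between tumours.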
